A study of Rattus norvegicus with 9 samples.

Results

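The apolipoproteins and plasma carrier proteins that yolk sac endoderm is known for were examined in cultured rat pXEN cells, the primitive extraembryonic endoderm stem cells that stand for the early lineage of the yolk sac. The set was 9 genes chosen by name, Apoa1, Apob, Apoe, Apom, Ttr, Rbp4, Afp, Tf and Mttp, of the 17315 genes in the count tables, and all 9 were present there. Reads of messenger RNA were counted, not protein in the medium. Apoe gave 4434 reads or more in every library. Mttp gave 0 to 18 reads, Apoa1, Apob, Apom and Tf gave 12 or fewer in any library, and Ttr, Rbp4 and Afp gave 0 in all 9 libraries.

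The cells were a single line, RX1, derived from WKY rats, and 3 libraries came from each of 3 culture media. CPE cultures grew on collagen (10 µg/ml) without serum, in 1 µM Chir99021, an inhibitor of the kinase Gsk3, with Pdgf and Egf. LPE cultures differed from these in having Lif, a cytokine, in place of Chir99021. T cultures grew on fibronectin (100 ng/ml) in a medium with Lif, Pdgf, Egf, the synthetic glucocorticoid dexamethasone at 0.5 µM and fetal bovine serum at 2%. Pdgf and Egf, each at 10 ng/ml, were present in all 3 media, as was β-mercaptoethanol, and Lif was used at 10 ng/ml where present. T thus differs from LPE in serum, dexamethasone, base medium and coating together, and these cannot be told apart. Nothing in the labels says whether libraries of a medium came from separate cultures, so the spread between them may be technical. All values describe 1 line.

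In the early embryo the visceral endoderm covers the epiblast and later forms the outer layer of the visceral yolk sac, where it takes up maternal nutrients and secretes many of the plasma proteins that the liver makes after birth. Apolipoproteins carry lipid in the blood. Apob is the scaffold on which the transfer protein Mttp loads lipid during assembly of the larger particles. Ttr carries thyroid hormone and, bound to Rbp4, retinol, Tf carries iron, and Afp is the main plasma protein of the fetus. The parietal endoderm, the other branch of the lineage, is known instead for laying down a thick basement membrane.

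Gene reads came to 3127352 to 4418465 in CPE, 3119049 to 3233526 in LPE and 1698764 to 2161228 in T libraries, or 7.96% to 14.8% of all reads. A read was worth 0.227 to 0.579 CPM, which is counts per 1000000 reads of the genes that passed the filter on low counts, with TMM scaling. At that depth a count of 0 allows up to 3 reads, or 0.681 to 1.74 CPM in a single library, which covers counting error only. Genes with a single read numbered 33 to 92 in CPE, 26 to 58 in LPE and 511 to 791 in the smaller T libraries. Genes read in 1 library alone had a median of 4 to 17 reads in CPE and LPE libraries and 1 in T libraries. Why the media differ in this is not recorded in the sources used here, and a 0 in a CPE or LPE library may allow more than the 3 reads on which the bounds below rest. Genes detected numbered 9162 to 9878 in CPE, 8607 to 9314 in LPE and 10143 to 10621 in T libraries. The endoderm label was checked against its markers: Gata4 averaged 927 ± 31.3 CPM in CPE, 836 ± 42.2 in LPE and 903 ± 80.3 in T libraries (SD, n = 3 each), and all 11 parietal endoderm markers in the tables passed the filter on low counts. Among 12 visceral endoderm markers, 7 passed, 3 were detected below the filter, and Lefty1 and Otx2 had 0 reads.

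The windows of 250 bases before the annotated start are shown for Apoe, the abundant gene, and for Rbp4 and Afp, which gave no read. They are RefSeq sequences on the build GRCr8, 5′ to 3′ on the gene's strand, whereas the reads were aligned to rn6. Capitals mark matches on either strand. The letters searched were TATAAA as the motif of the TATA box, GTTAAT for sites of the HNF1 type, AGATAA for sites bound by GATA factors, TGTTTAC for sites of the FOXA type and GGGCGG for the GC box. The Apoe window lies at chr1:88484700-88484949, minus strand, before the second of 3 listed starts. Which start these cells used was not measured. The Rbp4 window lies at chr1:245313552-245313801 and the Afp window at chr14:17875646-17875895, both on the minus strand.
Apoe: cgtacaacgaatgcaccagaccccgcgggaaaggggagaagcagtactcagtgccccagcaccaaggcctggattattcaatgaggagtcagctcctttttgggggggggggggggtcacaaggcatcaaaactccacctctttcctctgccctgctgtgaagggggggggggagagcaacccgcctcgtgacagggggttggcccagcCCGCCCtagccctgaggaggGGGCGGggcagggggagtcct
Rbp4: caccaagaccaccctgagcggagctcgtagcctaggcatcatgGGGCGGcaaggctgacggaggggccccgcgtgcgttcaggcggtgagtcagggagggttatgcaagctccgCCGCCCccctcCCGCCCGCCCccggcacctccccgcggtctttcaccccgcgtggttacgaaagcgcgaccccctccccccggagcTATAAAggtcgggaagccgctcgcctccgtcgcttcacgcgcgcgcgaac
Afp: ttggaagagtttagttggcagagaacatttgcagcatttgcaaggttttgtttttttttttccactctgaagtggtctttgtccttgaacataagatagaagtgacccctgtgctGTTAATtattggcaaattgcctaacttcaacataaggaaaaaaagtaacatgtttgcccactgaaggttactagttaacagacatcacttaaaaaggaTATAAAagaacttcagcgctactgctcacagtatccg
The Apoe window held 2 GC boxes and no TATA box, at 64.4% G and C. It is 1 of 3 listed: the window of the first start held no GC box, at 51.6% G and C, and that of the third held 2, at 60.8%. The Rbp4 window held 4 GC boxes and 1 TATA box, at 70.8% G and C. The Afp window held 1 TATA box and 1 HNF1-type match, at 37.2% G and C. Of 33469 RefSeq windows of this length, 30.5% held a GC box, 12.9% a TATA box, 6.45% an HNF1-type match, 10.3% a GATA-type and 3.21% a FOXA-type match. Among the other genes of the set, the Apom window had 1 HNF1-type match, the Tf window 1 TATA box, and the Ttr window none of the 5 motifs. A match describes the letters of the window and is not a measured binding site.

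**Figure D1:**
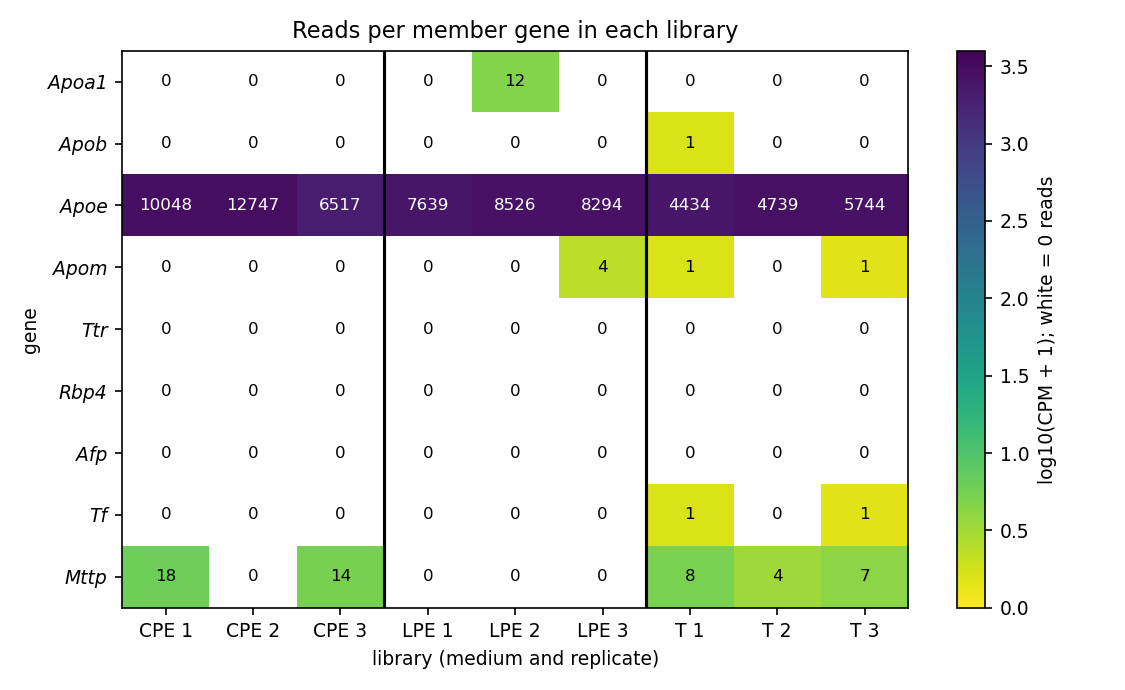
Reads of each of the 9 genes in each library, with libraries as columns (CPE, LPE, T from left to right) and genes as rows. Numbers are reads, colour is log10(CPM + 1) and white cells have 0 reads. Apoe fills its row with 4434 to 12747 reads, Ttr, Rbp4 and Afp are white throughout, and the other filled cells hold 1 to 18 reads.

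Apoe, the ligand by which lipoprotein particles bind their receptors, was the single gene of the set with reads in all 9 libraries, and no difference between the media was called for it. It had 10048, 12747 and 6517 reads in the CPE libraries, 7639, 8526 and 8294 in the LPE libraries, and 4434, 4739 and 5744 in the T libraries. Scaled to depth, these were 2963, 2895 and 2099 CPM in CPE, 2442, 2650.0 and 2658 CPM in LPE, and 2419, 2744 and 2671 CPM in T. The ranges of all 3 media overlapped, and CPE replicate 3 was the lowest library. The order of the mean levels was CPE at 2652 ± 480.3 CPM, T at 2612 ± 170.4 CPM and LPE at 2583 ± 123 CPM (SD, n = 3 each), and no neighbours in that order differed beyond their spread.

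In the fit over all 9130 genes that passed the filter, with edgeR's quasi-likelihood test and Benjamini-Hochberg adjustment, the log2 fold change of Apoe was 0.02 for CPE against T (SE 0.11, adjusted p = 0.905). The 95% interval of that fold ran from 0.864 to 1.19. For LPE against T it was -0.02 (SE 0.11, adjusted p = 0.938), with a fold between 0.841 and 1.16. For CPE against LPE it was 0.04 (SE 0.11, adjusted p = 0.858), with a fold between 0.873 and 1.21. A change in Apoe of 1.5-fold either way lay outside all 3 intervals. The sign of these small differences turned when single libraries were left out: for CPE against T the log2 fold change ranged from -0.07 to 0.16, for LPE against T from -0.07 to 0.03, and for CPE against LPE from -0.05 to 0.18. CPE against T and LPE against T share the T libraries.

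The 2 genes outside the set whose pattern over the 9 libraries was nearest to that of Apoe were Mocs3 and Ints10. Likeness was measured as the root mean square difference of log2(CPM + 2), each gene centred on its own mean, and came to 0.0749 for Mocs3 and 0.0937 for Ints10. Mocs3 averaged 14.5 CPM in CPE, 13.1 in LPE and 14.0 in T libraries, and Ints10 averaged 161, 153 and 155 CPM in that order. These are genes whose level, like that of Apoe, varied little between libraries, which follows from choosing them by likeness.

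Apoe sits in a gene cluster with Apoc1, Apoc4 and Apoc2 in the order of genes on GRCr8, with Tomm40, a pore subunit of the outer mitochondrial membrane, on its other side. Apoc4 and Apoc2, an activator of lipoprotein lipase, had 0 reads in all 9 libraries. Apoc1, a small exchangeable apolipoprotein, had 36, 95 and 41 reads in CPE, 17, 29 and 14 in LPE, and 2, 1 and 4 in T libraries. The 3 media formed 3 separate ranges, highest in CPE and lowest in T. The level was 15.1 ± 5.73 CPM in CPE, 6.31 ± 2.39 in LPE and 1.18 ± 0.645 in T libraries (SD, n = 3 each).

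Apoc1 was thus 12.2-fold higher in CPE than in T (log2 fold change 3.61, SE 0.84, edgeR adjusted p = 0.00372), with a 95% interval from 3.55-fold to 42.1-fold, beside an adjacent Apoe gene for which no change was called. Against T it was 5.11-fold higher in LPE (log2 fold change 2.35, SE 0.83, edgeR adjusted p = 0.0430). The LPE call was near the threshold: its adjusted p was 0.0765 without CPE replicate 2, 0.0594 without CPE replicate 3, 0.0732 without LPE replicate 2, and 0.137, 0.156 and 0.0799 without T replicates 1, 2 and 3. It was 0.0687 with no filter on low counts, 0.0712 with only LPE and T fitted and 0.0897 with the replicate number as a block. CPE and LPE were not told apart, with an adjusted p of 0.253 and a fold of CPE over LPE between 0.838 and 6.82. Tomm40 averaged 174 CPM in CPE, 148 in LPE and 101 in T libraries.

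**Figure D2:**
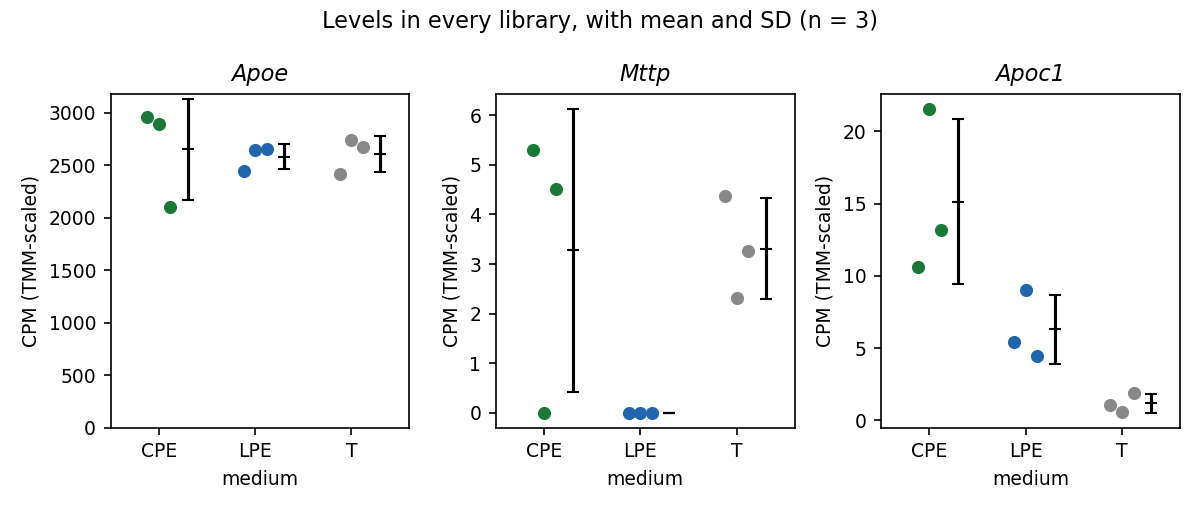
Level in CPM (linear axes from 0, a different scale in each panel) of Apoe, Mttp and Apoc1 in each library, with points for libraries and bars for mean ± SD (n = 3 per medium). Apoe lies between 2099 and 2963 CPM in all media, Mttp is at 0 in the 3 LPE libraries and in CPE replicate 2, and Apoc1 falls into 3 ranges.

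Mttp, the endoplasmic reticulum protein that transfers lipid onto Apob, was read in CPE and T libraries and not in LPE. It had 18, 0 and 14 reads in the CPE libraries, 0 in each LPE library, and 8, 4 and 7 reads in the T libraries. As levels these were 5.31, 0 and 4.51 CPM in CPE, 0 in LPE, and 4.37, 2.32 and 3.25 CPM in T. CPE replicate 2, the deepest library, was at 0 while the other CPE libraries were the highest of all, so the CPE and T ranges overlapped. LPE lay below T without overlap.

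Mttp was at least 3.48-fold lower in LPE than in T, counted against 3 reads per LPE library (edgeR adjusted p = 0.0444). Genes read in 1 LPE library alone had a median of 7 to 17 reads, so this bound is for counting error only. It was the 1 gene called among the 2 genes of the set tested, where 29.7% of all genes tested were called in LPE against T and 14.7% were called lower. The call was near the threshold: it was kept without CPE replicate 2 and was lost on leaving out any other single library, with an adjusted p of 0.0539 and 0.0629 without CPE replicates 1 and 3, 0.0776, 0.0693 and 0.0821 without LPE replicates 1, 2 and 3, and 0.119, 0.0907 and 0.105 without T replicates 1, 2 and 3. Of 14 alternatives that gave it a value, 5 kept the call.

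For CPE against LPE, edgeR called 0 of the 2 genes, where 17.8% of all genes tested were called, 9.56% higher and 8.23% lower. Mttp, at least 3.44-fold higher in CPE by the same bound, had an adjusted p of 0.0636. At an unadjusted p under 0.05 it was the 1 gene of the set to pass, DESeq2 called it with an adjusted p of 0.0172, and edgeR called it without CPE replicate 2 (adjusted p = 0.0312). For CPE against T, edgeR and DESeq2 both called 0 of the 2 genes, and 0 had an unadjusted edgeR p under 0.05, where 32.1% of all genes tested were called by edgeR. The adjusted p of Mttp there was 0.992, and the interval of its fold, 0.112 to 8.56, was too wide to bound a difference.

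The genes nearest to Mttp in pattern were Zfp637 and Ns5atp4, at root mean square differences of 0.310 and 0.319. Ns5atp4 averaged 3.34 CPM in CPE, 0.321 in LPE and 3.99 in T libraries, and Zfp637 averaged 12.9, 4.75 and 12.9 CPM in that order. Both were lowest in LPE, as Mttp was, which follows from choosing them by their likeness to Mttp. Next to Mttp on the chromosome, Trmt10a was read in all 9 libraries and Dapp1 in none.

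Apob, the structural protein of chylomicrons and very low density lipoproteins, gave 1 read in all, in T replicate 1. Its messenger RNA is very long, and random priming over a long transcript gives many reads per molecule. Apoa1, the main protein of high density lipoproteins, gave 12 reads in LPE replicate 2 and 0 in the other 8 libraries. Apom, which carries sphingosine-1-phosphate on high density lipoproteins, gave 4 reads in LPE replicate 3 and 1 read each in T replicates 1 and 3. None of the 3 was read in a CPE library, and none was read in more than 1 library of LPE.

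The 12 reads of Apoa1 make 3.73 CPM in that library, above the 3 reads that a count of 0 allows. Isolated counts of this kind were seen for other genes too. LPE replicate 2 held 27 genes read in no other library, with a median of 17 reads and a highest count of 52. In T libraries, 139 to 224 genes were read in 1 library alone, with a median of 1 read. Whether the Apoa1 reads come from these cells was not tested. In the Apoa1 cluster, Apoc3 had 10 reads in all, 9 of them in CPE replicate 3, Apoa4 had 3 and Apoa5 had 5, whereas Sik3 on the other side was read in all 9 libraries with 546 reads.

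Of the 4 carrier proteins, Ttr, Rbp4 and Afp had 0 reads in every library. On the strand opposite to Afp, 10 reads lay in LPE replicate 2 and 2 in T replicate 1. Over the 9 libraries together, 3 reads correspond to 0.115 CPM for each of them. Tf, the plasma iron carrier, gave 1 read each in T replicates 1 and 3 and 0 elsewhere. A share of 31.2% of the 17315 genes in the tables had 0 reads in all 9 libraries, beside 3 of these 9. Both values are counts at this depth, not proof of a silent gene.

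Of the 6 genes immediately beside Ttr, Rbp4 and Afp, 4 had 0 reads in all libraries, and of the 18 genes up to 3 places away on either side, 7 did, where 31.2% of all genes had none. Afp lies between Afm, which had 3 reads, and Alb, which had 0, and the next gene, Ankrd17, had 6755 reads and was read in all libraries. Tf lies between Srprb and Cdv3, with 2371 and 4771 reads. Ttr lies between Dsg3, at 0, and B4galt6, with 1987 reads. Rbp4 lies between Ffar4 and Pde6c, both at 0.

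Counting how many of the 9 genes had any read gave 2, 1 and 2 in the CPE libraries, 1, 2 and 2 in the LPE libraries, and 5, 2 and 4 in the T libraries. Over a medium, 2 genes were read in CPE, 3 in LPE and 5 in T. After all libraries were thinned to the 1698764 reads of the smallest, T replicate 3 had 3 and the other libraries kept their numbers. Apob and Tf were read in T libraries alone, with 1 read in a library, and T libraries were also those with the most genes at a single read in general. The summed level of the 8 genes other than Apoe was 0 to 5.31 CPM in CPE, 0 to 3.73 in LPE and 2.32 to 6.002 in T libraries. In bulk samples, fewer cells making a transcript and less of it per cell cannot be told apart.

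Of 15 other apolipoprotein genes, 9 had 0 reads in all libraries, or 60.0%, where 31.2% of all genes did: Apoc2, Apoc4, Apod, Apof, Apoh, Apon, Apol3, Apol9a and Saa4. A further 4, Apoa2, Apoa4, Apoa5 and Apoc3, had at most 9 reads in a library and did not pass the filter. Apoc1 and Clu passed. Clu, also known as apolipoprotein J, had 343, 115 and 62 reads in CPE, 57, 0 and 44 in LPE, and 87, 64 and 79 in T libraries. It was not called in any comparison, with edgeR adjusted p-values of 0.814 for CPE against T, 0.0813 for LPE against T and 0.0655 for CPE against LPE. With no filter on low counts the last 2 comparisons were called (adjusted p = 0.0215 and 0.0124), as they were with the replicate number as a block (0.0295 and 0.0476).

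Among 38 other secreted plasma proteins in the tables, 23 had 0 reads in all 9 libraries, or 60.5%. These included albumin (Alb), the fetuins (Ahsg and Fetub), the vitamin D carrier Gc, the heme carrier Hpx, the elastase inhibitor Serpina1, angiotensinogen (Agt), vitronectin (Vtn), ceruloplasmin (Cp) and the fibrinogen chain gene Fgb. Of the rest, 12 were read below the filter, with at most 29 reads in a library. The fibrinogen gene Fga had 0 reads in CPE libraries, 1 in all in LPE libraries, and 9, 6 and 3 in T libraries. Plg, the precursor of plasmin, had 10, 3 and 10 reads in CPE libraries and 0 in both other media.

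The 3 plasma protein genes that passed the filter were Igfbp2, Serping1 and Cpn1. Igfbp2, which binds insulin-like growth factors, had 191, 63 and 49 reads in CPE, 0 in each LPE library, and 11, 15 and 10 in T libraries. Counted against 3 reads per LPE library, it was at least 6.78-fold lower in LPE than in T (edgeR adjusted p = 0.000783). By this bound, which is for counting error only, it was at least 30.3-fold higher in CPE than in LPE (adjusted p = 0.000127). Serping1, the inhibitor of complement C1, averaged 1.09 ± 0.760 CPM in CPE and 19.5 ± 7.53 CPM in LPE libraries (SD, n = 3 each) and CPE lay 17.7-fold lower than LPE (adjusted p = 0.00264). Cpn1, a subunit of plasma carboxypeptidase N, was not called in any of the 3 comparisons.

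**Figure D3:**
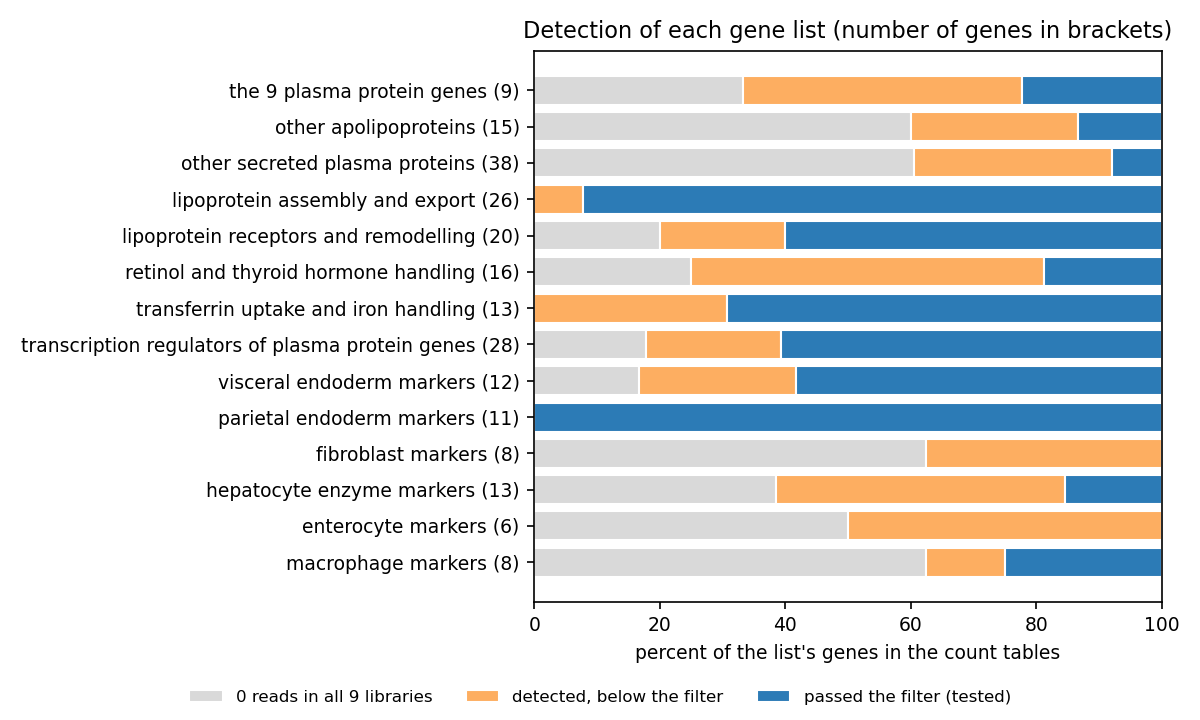
Share of each gene list (percent of the list's genes in the count tables, list size in brackets) with 0 reads in all 9 libraries, detected below the filter, or passing the filter. The secreted plasma proteins and apolipoproteins are mostly grey, with 60.5% and 60.0% at 0, while the assembly and export list has 24 of 26 genes tested and the parietal endoderm markers 11 of 11.

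The apparatus that cells use to export large cargo was read for the most part, as it is in most cells. Of 29 genes listed for lipoprotein assembly and export other than Mttp, 26 were in the count tables. Mia2, Mia3 and Pla2g12b had no entry under those names and were not measured. Of the 26 genes, none was at 0 in all libraries and 24 passed the filter. Cideb and Abcg1 did not pass, with Cideb at 0 in LPE and Abcg1 at 0 in CPE libraries. In CPE against T, 6 were called higher and 5 lower, with a median log2 fold change of -0.22 over the list against -0.01 over all genes tested. In LPE against T, 6 were higher and 2 lower (median -0.09 against -0.03), and in CPE against LPE 1 was higher and 6 lower (median -0.01 against 0.01). Over all genes tested, 16.8% were called higher and 15.3% lower in CPE against T, 15% and 14.7% in LPE against T, and 9.56% and 8.23% in CPE against LPE. Leaving out 1 library in turn, the 2 lower in LPE against T became 1 to 5 (not within 1.5 times the 2 without CPE replicate 1 or any T library), and the 6 lower in CPE against LPE became 3 to 5, with 3 without CPE replicate 3.

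Lman1, a cargo receptor between endoplasmic reticulum and Golgi, was 2.597-fold higher in CPE and 2.09-fold higher in LPE than in T (edgeR adjusted p = 1.61e-05 and 0.000207). Sec31a, of the outer COPII coat, was 2.17-fold higher in CPE and 2.66-fold higher in LPE. P4hb, the disulfide isomerase that is also the partner subunit of Mttp, averaged 909 ± 109 CPM in CPE, 1118 ± 11.1 in LPE and 639 ± 28.3 in T libraries (SD, n = 3 each). Dgat2, an enzyme of triglyceride synthesis, was lower in both media, 2.496-fold in CPE and 4.02-fold in LPE against T (adjusted p = 3.46e-05 and 9.79e-07). Preb, an activator of COPII coat assembly, was 2.32-fold lower in CPE against T. P4hb falls outside the rule for naming genes and was chosen after its values were seen.

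Several receptors that take up Apoe-bearing particles were higher in the serum-free media, while Apoe itself was not called. Of 12 tested genes of lipoprotein receptors and remodelling, 7 were higher and 1 lower in CPE against T (median log2 fold change 0.96, against -0.01 over all genes tested). In LPE against T, 4 were higher and 1 lower (median 0.29 against -0.03), and in CPE against LPE 4 were higher and 2 lower (median 0.36 against 0.01). Without 1 library in turn, 5 to 7 were higher in CPE and 3 to 4 in LPE against T. Vldlr, Lipc and Gpihbp1 were among those with 0 reads in all libraries.

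Lrp2, or megalin, an endocytic receptor of yolk sac endoderm that also binds Rbp4 and Ttr, averaged 259 ± 87.8 CPM in CPE, 190.3 ± 9.73 in LPE and 90.02 ± 19.9 in T libraries (SD, n = 3 each). It was 2.88-fold higher in CPE and 2.11-fold higher in LPE than in T (edgeR adjusted p = 6.17e-05 and 0.00135). Scarb1, the receptor that takes cholesterol from high density lipoproteins, averaged 212 ± 17.3 CPM in CPE, 125 ± 15.1 in LPE and 104 ± 21.7 in T libraries. It was 1.69-fold higher in CPE than in LPE (adjusted p = 0.00475), and LPE and T overlapped. Scarb1 falls outside the rule for naming genes and was chosen after its values were seen.

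Lipg, endothelial lipase, averaged 693 ± 123 CPM in CPE, 396 ± 35.3 in LPE and 318 ± 40.7 in T libraries, and was 1.75-fold higher in CPE than in LPE (edgeR adjusted p = 0.000647). Lsr, a receptor for triglyceride-rich particles, was 3.30-fold higher in LPE than in T (adjusted p = 0.000115). Lrpap1, the chaperone of Lrp2 and related receptors, was lower in CPE, 1.78-fold against T and 1.93-fold against LPE. Lrp1, another Apoe receptor, averaged 25.7 ± 14.4 CPM in CPE, 21.1 ± 4.64 in LPE and 7.35 ± 3.38 in T libraries. It was called higher than T in CPE and LPE (adjusted p = 0.0143 and 0.0368), but without T replicate 3 its adjusted p was 0.0774 for CPE and 0.160 for LPE, and without T replicate 2 it was 0.0542 and 0.109. It was also 0.0956 for CPE without CPE replicate 1, and 0.0520 and 0.0990 for LPE without LPE replicates 1 and 3.

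**Figure D4:**
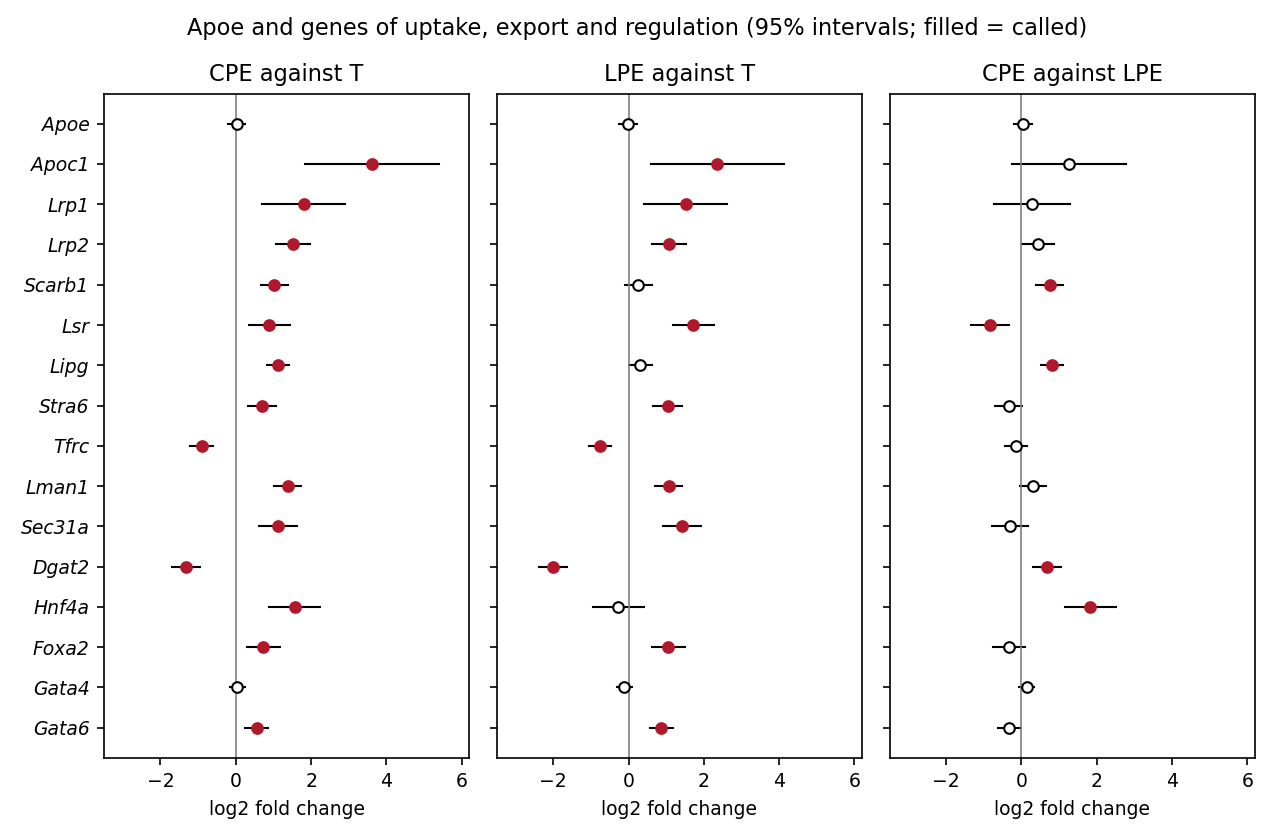
Log2 fold change with its 95% interval (edgeR) of Apoe and of genes of uptake, export and regulation, in panels for CPE against T, LPE against T and CPE against LPE. Filled points were called at an adjusted p under 0.05. Apoe stays within 0.26 of 0 in CPE against T while Apoc1 lies at 3.61 in CPE against T and 2.35 in LPE against T.

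Few genes that handle the cargo of Rbp4 and Ttr were read above the filter. Of 16 genes of retinol and thyroid hormone handling, 4 were at 0 (Lrat, Slco1c1, Dio1 and Dio2), 9 were read below the filter and 3 were tested. Stra6, the membrane receptor of Rbp4, was 1.62-fold higher in CPE and 2.05-fold higher in LPE than in T (edgeR adjusted p = 0.00653 and 0.000396), at 102 ± 13.7 CPM in CPE, 128 ± 7.16 in LPE and 62.5 ± 4.58 in T libraries. Rdh10, which oxidises retinol, was 7.58-fold lower in LPE than in T (adjusted p = 0.00432).

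Tfrc, the receptor that takes up iron-loaded Tf, was lower in both serum-free media than in T. It averaged 209 ± 34.0 CPM in CPE, 232 ± 23.5 in LPE and 392 ± 17.5 in T libraries (SD, n = 3 each), 1.88-fold lower in CPE and 1.69-fold lower in LPE (edgeR adjusted p = 0.000120 and 0.000661). The ferritin chain genes for iron storage were higher: Fth1 was 2.90-fold and Ftl1 2.16-fold higher in CPE, and 2.497-fold and 2.37-fold higher in LPE. Of the 9 tested iron genes, these 2 were the ones called higher against T, and 2 were called lower in CPE and 1 in LPE. The 2 lower in CPE became 1 without CPE replicate 1 or 3 or any T library, and the 1 lower in LPE became 2 without CPE replicate 1 or LPE replicate 1. Ferritin genes have processed copies in the genome, and reads mapping to several places were not counted, so their levels are uncertain.

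The transcription regulators of plasma protein genes in liver and yolk sac were in part present. The list also holds repressors, such as Zbtb20, so its counts are not of activators alone. Of 28 in the tables, 17 passed the filter, 6 were read below it, and Nr1h4, Ppargc1a, Onecut1, Nr2f1 and Creb3l3 had 0 reads. In CPE against T, 7 were higher and 2 lower (median log2 fold change 1.37 against -0.01 over all genes tested). In LPE against T, 4 were higher and 2 lower (median 0.22 against -0.03), and in CPE against LPE 3 were higher and 1 lower (median 0.16 against 0.01). Without 1 library in turn, 6 to 8 were higher in CPE against T.

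Hnf4a, the nuclear receptor that many apolipoprotein genes need in liver and visceral endoderm, averaged 56.8 ± 3.61 CPM in CPE, 15.9 ± 5.27 in LPE and 19.1 ± 0.978 in T libraries (SD, n = 3 each). It was 2.96-fold higher in CPE than in T and 3.57-fold higher in CPE than in LPE (edgeR adjusted p = 0.00136 and 0.000748). The same CPE libraries gave 0 reads of Ttr, Rbp4, Afp, Apoa1, Apob, Apom and Tf. Gata4 was not called in any comparison, with ranges that overlapped in CPE and T and in LPE and T but not in CPE and LPE, and Gata6 was 1.47-fold higher in CPE and 1.83-fold higher in LPE. Foxa2 was 2.07-fold higher in LPE than in T.

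Foxa1 averaged 4.44 ± 1.23 CPM in CPE, 0 in LPE and 0.375 ± 0.325 in T libraries, and Foxa3 was read in T libraries alone, with 6, 0 and 1 reads. Zbtb20, a repressor of Afp in the liver after birth in mouse, averaged 14.2 ± 7.13 CPM in CPE, 0 in LPE and 2.88 ± 1.10 in T libraries. Counted against 3 reads per LPE library, it was at least 3.03-fold lower in LPE than in T, where it had 4 to 7 reads (edgeR adjusted p = 0.00732). By the same bound it was at least 14.9-fold higher in CPE than in LPE (adjusted p = 0.00129). CPE against T was not called (adjusted p = 0.0832). Both bounds are for counting error only, since genes read in 1 LPE library alone had a median of 7 to 17 reads. Srebf1, a regulator of lipid synthesis, was 3.42-fold higher in CPE and 3.22-fold higher in LPE than in T. Srebf2, which controls cholesterol synthesis, was 2.58-fold higher in CPE and 2.63-fold higher in LPE than in T. Nr1h2, a sterol-sensing receptor that raises Apoe in macrophages, was 2.12-fold lower in CPE and 2.37-fold lower in LPE.

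The uptake receptors that mark visceral endoderm did not move together. Of 7 tested visceral endoderm markers, 1 was higher and 3 lower in CPE against T, 3 were higher and 2 lower in LPE against T, and 1 was higher and 3 lower in CPE against LPE. On leaving out any 1 library, 3 were still lower in CPE against T and in CPE against LPE, while the number lower in LPE against T was 1 without any LPE or any T library. The 1 higher in CPE against LPE was 0 on leaving out any library but CPE replicate 2. Cubn, a receptor that also binds Apoa1, averaged 472 ± 73.2 CPM in CPE, 1528 ± 248 in LPE and 801 ± 195 in T libraries. It was 1.70-fold lower in CPE and 1.91-fold higher in LPE than in T (edgeR adjusted p = 0.00236 and 0.000564). Amn, its membrane partner, was 13.2-fold lower in CPE and 2.12-fold lower in LPE.

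Of the 11 parietal endoderm markers, 4 were higher and 2 lower in CPE against T, 6 were higher and 2 lower in LPE against T, and 1 was higher and 6 lower in CPE against LPE. Srgn, Lamc1 and Col4a1 were higher in CPE than in T by 2.62-fold, 2.45-fold and 1.67-fold. In LPE they were higher than in T by 5.16-fold, 3.64-fold and 2.99-fold. Vim was 4.59-fold lower in CPE and 2.07-fold higher in LPE than in T. Pth1r was lower than in T in both, 1.45-fold in CPE and 1.76-fold in LPE (edgeR adjusted p = 0.00469 and 0.000210). Plat was 15.4-fold lower in LPE than in T and 21.0-fold higher in CPE than in LPE (adjusted p = 0.00789 and 0.00659). In LPE, Plat was read in 1 library, with 7 reads.

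Markers of other cell types that could supply plasma proteins were in part read and in part at 0 in all libraries. Of 13 hepatocyte enzyme genes, 5 were at 0 (Tdo2, G6pc, Pck1, Cyp2e1 and Ttpa), and the summed level was 47.4 to 93.6 CPM in CPE, 9.29 to 27.97 in LPE and 38.6 to 46.9 in T libraries, most of it from Ass1 in CPE and T. Ass1 was 11.9-fold lower in LPE than in T (edgeR adjusted p = 0.00143). It was 23.4-fold higher in CPE than in LPE (adjusted p = 0.000386). Of 6 enterocyte genes, Fabp1, Fabp2 and Alpi were at 0, and Cdx2 averaged 10.3 ± 11.4 CPM in CPE and 0 in LPE and T, with sums of 0 to 23.5 CPM in CPE, 1.92 to 7.77 in LPE and 0.465 to 0.579 in T. Of 8 macrophage genes, which matter because macrophages make Apoe, Ptprc, Adgre1, Lyz2, Aif1 and Spi1 were at 0 in all libraries. Cd68 was read in all 9 libraries, at 8.27 ± 7.02 CPM in CPE, 7.95 ± 4.22 in LPE and 2.44 ± 0.698 in T (SD, n = 3 each), and Csf1r and Cd14 were read in some. The macrophage sums were 8.18 to 23.3 CPM in CPE, 5.59 to 17.9 in LPE and 4.65 to 8.73 in T. Of 8 fibroblast genes, Col1a2, Dcn, Lum, Pdgfrb and Postn were at 0 and Col1a1 averaged 0 in CPE and LPE and 11.5 ± 10.5 CPM in T, with sums of 0 to 6.44 CPM in CPE, 0 in LPE and 1.39 to 32.4 in T. The part of such cells in the Apoe level was not tested.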

How the data were processed

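Ribosomal RNA was removed from total RNA and a directional kit with random primers was read in pairs of 101 cycles, per the labels' protocols. The labels name both HiSeq 2500 and HiSeq2000. CASAVA 1.8.2, Trimmomatic 0.33, STAR 2.5.1, DESeq2 and build rn6 are named in the submitters' processing notes. No source used here names the gene annotation. The deposited tables hold the authors' raw counts of reads per gene in 4 columns: the symbol, then reads on either strand, on that of read 1 and on the opposite one. The last column was used as the gene strand, since the other one holds 0.822% to 0.986% of the reads of both. In 4 summary lines, left out of totals and tests, 51.7% to 67.6% of reads map to several places. These enter no gene, which lowers the counts of genes that have close copies.

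The test was that of edgeR 4.0.16 under R 4.3.3 (quasi-likelihood F test on all 9 libraries, a mean per medium, TMM factors). The filter filterByExpr (at least 10 counts in enough libraries, 15 in total) kept 9130 genes, Benjamini-Hochberg adjustment ran over them, and a gene was called at an adjusted p under 0.05. The fit was also run on simulated data, with changes placed only in genes of higher mean level than Mttp. That run does not cover calls for genes with few reads. CPM are counts per 1000000 reads of the genes kept by the filter, with TMM factors. No gene lengths were used, so levels are compared only within a gene. Folds against a medium at 0 use 3 counts in each library as the floor, which reflects counting error alone. DESeq2 1.42.0, its size factors, no filter, counts on either strand, fits of only the 2 media compared, a replicate block and leaving out each library were alternatives.

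The 9 genes and the 13 further lists were chosen with earlier results of these data known. All 9 are described. From the lists come the called genes that changed most, at most 3 in each direction per comparison (at least 1 CPM in the higher medium), plus markers and regulators fixed by name. List genes whose call was lost on leaving out a library are mostly not named, and some list genes are not reported here.

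RefSeq GRCr8 tables, in which all 9 symbols matched, gave promoter windows and gene order. No window was used for Apoa1, Apob or Mttp.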

Additional observations from a re-analysis of the deposited data

Results flagged for a closer look

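Reads on the strand opposite to Afp appeared in 1 library of the serum-free media. LPE replicate 2 had 10 such reads, or 3.11 CPM, and T replicate 1 had 2, or 1.09 CPM, while the other 7 libraries had 0. This was singled out because counts on the opposite strand alone enter no comparison, only the alternative with reads of either strand, and the value lies above both the level in T libraries and the 3 reads that a count of 0 allows. The gene strand of Afp had 0 reads in all 9 libraries. LPE replicate 2 is also the library that held all 12 Apoa1 reads. Among the other genes of the set, opposite-strand reads were 7 in T replicate 3 and 1 in T replicate 1 for Apom, 1 in T replicate 3 for Tf, and 0 to 13 per library for Apoe. Whether the Afp reads are antisense transcription was not tested.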

How the results depend on the processing

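The number of genes of the set called moved in 2 comparisons. In LPE against T it was 1 (Mttp) in the fit as reported, 0 with the replicate block, 0 with only the 2 media compared, where Mttp did not pass the filter, and 0 to 1 on leaving out each library in turn. In CPE against LPE it was 0, but 1 with the DESeq2 test and 0 to 1 on leaving out libraries. Signs turned for differences that were not called. The log2 fold change of Apoe in LPE against T, -0.02 as reported, was 0.00049 with DESeq2 size factors, 0.00050 with the DESeq2 test, 0.016 with only the 2 media compared and -0.075 to 0.031 on leaving out libraries. On leaving out libraries it was -0.069 to 0.16 in CPE against T and -0.048 to 0.18 in CPE against LPE. Mttp in CPE against T ranged from -0.58 to 0.55 (without CPE replicates 1 and 2) and was -0.70 with the replicate block. Clu in CPE against T was -0.060 with the replicate block and ranged from -0.81 (without CPE replicate 1) to 0.64. Calls over all genes stayed within 1.5 times the reported number in every alternative run. No pairing by replicate number was seen in the deviations of the libraries. Same-numbered libraries correlated at -0.028 to 0.010, and libraries of different number at -0.043 to 0.036. With the replicate block 2751, 2558 and 1500 genes were called in CPE against T, LPE against T and CPE against LPE. With counts on either strand, 2 genes in place of 3 were at 0 and 7 in place of 6 were detected, because of reads opposite to Afp. Thinning all libraries to the smallest left 6 detected. Depth limits what is said of the genes with few reads: 3 reads are worth 0.681 to 1.74 CPM per library.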
